A study of Mus musculus with 2 samples.

Results

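The genes described here are 8 members of the major histocompatibility complex (MHC) class I pathway, the heavy chain genes H2-K1, H2-D1 and H2-Q7, the light chain gene B2m, the peptide loading genes Tap1, Tap2 and Tapbp, and Nlrc5, which encodes a transcriptional activator of class I genes. They were chosen by their symbols among the 28692 genes listed for each library, and all 8 were found. Single lung cells of Lepr-Cre;Rosa26-tdtomato mice aged 8-10 weeks were measured after saline or after bleomycin, a DNA-damaging drug used to cause lung fibrosis in mice. Both groups carried the same 2 alleles, a Cre recombinase driven by the leptin receptor gene Lepr and a tdTomato reporter in Rosa26 that stays on once Cre has acted. Live tdTomato+ cells were sorted, so the reporter marks cells in which Lepr is or has been active. There was 1 library per group, made with droplet capture of the 3' ends of transcripts and counted as unique molecular identifiers (UMIs), each standing for 1 captured transcript. The sources used here do not give the number of mice behind a library, the dose, the day after treatment or the H2 haplotype of the mice. With 1 library per group no test between saline and bleomycin was possible, and no spread between animals can be given.

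Class I molecules sit on the surface of nearly all nucleated cells and show peptides from inside the cell to CD8+ T cells and natural killer cells. The proteasome cuts proteins into peptides, the transporter formed by Tap1 and Tap2 moves these into the endoplasmic reticulum, tapasin (Tapbp) holds the transporter beside an empty heavy chain, and the heavy chain leaves for the surface once it is joined to beta-2 microglobulin (B2m) and a peptide. H2-K1 and H2-D1 are the classical heavy chains of the mouse, and H2-Q7 encodes a nonclassical one, part of the Qa-2 antigen. Interferons raise the transcription of the whole pathway through Irf1 and Nlrc5 among others, and NF-kappa B acts on class I promoters as well.

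The genes lie in a few places of the mm10 genome (positions from the GENCODE vM21 annotation, all protein-coding). On chromosome 17, within the MHC, are H2-K1 (chr17:33996017-34000347, minus strand), Tapbp (chr17:33915899-33929292, plus strand), Tap1 (chr17:34187553-34197225, plus strand), Tap2 (chr17:34203527-34216321, plus strand), H2-D1 (chr17:35262730-35267499, plus strand) and H2-Q7 (chr17:35439155-35443773, plus strand). B2m lies at chr2:122147686-122153083 and Nlrc5 at chr8:94434356-94527272, both on the plus strand. Heavy chain genes resemble each other, so the last 400 bases of every annotated coding transcript, where 3' reads fall, were searched for stretches of 98 bases shared with another gene. None of the windows of the 8 genes was shared.

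The promoters of the 3 heavy chain genes and of B2m are printed for the letters they hold. Of the promoters searched, only these held the letters searched for a kappa-B enhancer or for an interferon-stimulated response element. RefSeq's table for GRCm38.p6 held the region around the start of 6 of the 8 genes (not Tap2 or Nlrc5), and 150 bases of 4 of them are shown, 5' to 3' on the gene's strand. Capitals mark, from left to right, the letters of the kappa-B enhancer (heavy chains only), of the interferon-stimulated response element, of the X2 box (TGACG) and of the Y box (CCAAT, or its reverse complement).
H2-K1, chr17:34000321-34000470, minus strand: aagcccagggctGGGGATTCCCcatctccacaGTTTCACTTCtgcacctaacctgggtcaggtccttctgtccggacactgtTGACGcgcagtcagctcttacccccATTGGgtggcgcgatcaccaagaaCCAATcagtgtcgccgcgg
H2-D1, chr17:35262911-35263060, plus strand: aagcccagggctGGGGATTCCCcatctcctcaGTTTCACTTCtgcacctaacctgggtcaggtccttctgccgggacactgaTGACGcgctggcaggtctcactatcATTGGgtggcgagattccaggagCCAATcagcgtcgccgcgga
H2-Q7, chr17:35439010-35439159, plus strand: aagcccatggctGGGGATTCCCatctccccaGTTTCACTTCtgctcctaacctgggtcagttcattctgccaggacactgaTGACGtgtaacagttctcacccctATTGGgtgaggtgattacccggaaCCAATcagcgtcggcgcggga
B2m, chr2:122147536-122147685, plus strand: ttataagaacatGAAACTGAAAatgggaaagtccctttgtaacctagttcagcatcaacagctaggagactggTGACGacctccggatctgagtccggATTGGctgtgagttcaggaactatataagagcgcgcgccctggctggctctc

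The 3 heavy chain promoters hold the same boxes in the same order. B2m lacks the kappa-B letters that were searched, and other spellings of a kappa-B site were not searched. Its response element letters are of another form and on the other strand. It has the X2 letters and the reverse complement of CCAAT, but not CCAAT itself. In the printed stretches H2-K1 and H2-D1 had 88.1% of aligned bases in common, H2-K1 and H2-Q7 82.9% and H2-D1 and H2-Q7 84.2%, against 50.6% to 53.8% for any of them with B2m. The first run of capitals, the kappa-B letters, was found on either strand in 35 of the 32851 windows of the table (0.107%). The second run of the heavy chains, with any base at its seventh place, was found in 133 (0.405%). These 2 forms were spelled after the windows were read. Of the motifs in the first list searched, the second kind of response element, printed in B2m and searched with any bases in place of its central CT, was in 3.44% of all windows. TGACG was in 20.8%, CCAAT in 37.4%, and the kappa-B letters followed by another C, which overlap the shorter form by construction, in 0.0304%, among them H2-K1 and H2-D1. The shorter kappa-B core GGGANTTCC (1.68% of windows) and the interferon-gamma activated sequence TTCNNNGAA (8.3%) were in none of the 6. Tap1 had a TGACG and a CCAAT, and Tapbp only CCAAT. The TATA letters TATAAA (13.6% of windows) lay 26 bases before the start in H2-D1. RefSeq lists more than 1 start for H2-K1, and with the first listed, used here, they lay downstream of it.

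**Figure D1:**
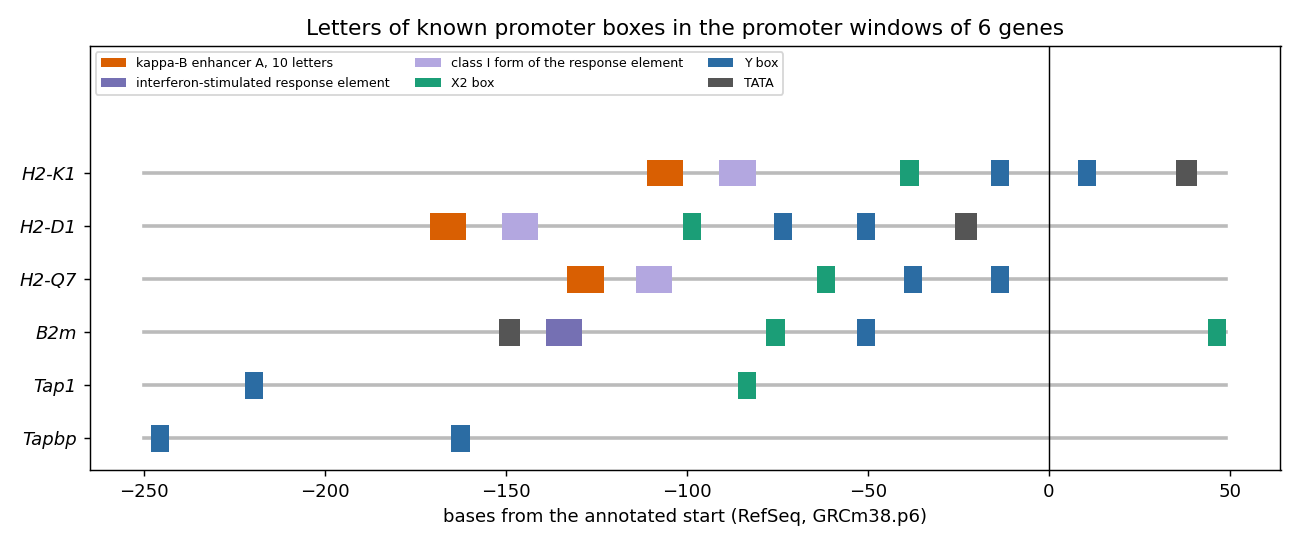
Positions of the searched letters in the RefSeq promoter windows of 6 genes, as bases from the annotated start (x axis), with 1 row per gene and 1 colour per motif, either strand. The 3 heavy chain genes carry kappa-B letters, response element letters, X2 and Y boxes in the same order at shifted distances. B2m lacks the searched spellings of the first and carries another form of the second. Of the searched letters, Tap1 and Tapbp have X2 or Y letters only.

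Of 5455 saline barcodes (37570380 UMIs in all) 5194 were kept as cells, and of 4473 bleomycin barcodes (61537182 UMIs) 4308, with medians of 6303.5 and 12300 UMIs. The libraries shared 33 barcodes. Cells were clustered without the class I, peptide loading, proteasome and class II genes, so that these could not define the 25 clusters, and a class name means that a cluster resembles that type by its markers. The share of cells with a UMI of a lineage's markers, averaged over the markers, was 76.3% to 87.2% in fibroblast clusters and 75% to 87.1% in endothelial clusters. Levels are UMIs per 1000000 UMIs of a class or cluster (UPM), summed over its cells. Exact 95% intervals stand in square brackets and cover counting error alone. The words rose and fell are kept for genes that passed a rule of size, namely a ratio of 2-fold or more between the libraries, with 1 UPM added to both sides, and 50 UMIs and 20 UPM or more where the gene was higher. Genes with that many UMIs count as measured. UMIs are counted at 3' ends, so levels are compared within a gene and not between genes.

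In the saline library endothelial cells had more of all 3 heavy chains than pooled fibroblasts did, and smooth muscle had less. H2-K1 stood at 658 UPM [647 to 670] in 2608 alveolar fibroblasts, 848 [823 to 874] in 803 adventitial fibroblasts, 1470 [1410 to 1540] in 156 endothelial cells and 1570 [1530 to 1620] in 641 alveolar macrophages. The last were 2.11 times [2.04 to 2.18] the pooled fibroblasts. H2-D1, the other classical chain, was highest of these 4 classes in endothelial cells, at 2790 UPM, 1.83 times [1.76 to 1.89] the pooled fibroblasts, whereas macrophages with 1710 UPM were only 1.12 times [1.09 to 1.15] them. H2-Q7 set the endothelium apart most, with 459 UPM, 5.47 times [4.98 to 6] the 83.9 UPM of pooled fibroblasts. B2m differed little between these 4 classes, from 4150 UPM in alveolar macrophages to 5470 in endothelial cells. Tap1 and Tap2 were 2.09 times [1.69 to 2.56] and 1.96 times [1.62 to 2.36] as high in endothelial cells as in pooled fibroblasts, while Tapbp was highest of the 4 in macrophages, at 266 UPM. Smooth muscle cells had 218 UPM of H2-K1, 1560 of B2m and 6.87 of Tap1 (4 UMIs). Epithelial cells (468) were below the fibroblasts as well, with 16.5 UPM of H2-Q7 and less B2m than smooth muscle, at 617 UPM.

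Adventitial and alveolar fibroblasts differed by gene. In saline, adventitial cells were higher for H2-K1 (1.29 times [1.24 to 1.33]), H2-D1 (1.35 times [1.32 to 1.38]), H2-Q7 (1.63 times [1.46 to 1.82]) and Tapbp (1.52 times [1.42 to 1.63]), and slightly lower for B2m (0.974 times [0.960 to 0.988]). The Tap1 ratio was 1.18 [0.991 to 1.40], an interval that includes 1. After bleomycin, adventitial cells again had more H2-K1 (2.05 times [1.83 to 2.29]), H2-D1 (1.46 times [1.35 to 1.57]) and H2-Q7 (2.62 times [1.60 to 4.34]), but less Tap1 (0.610 times [0.390 to 0.928]) and Tap2 (0.606 times [0.393 to 0.908]). The bleomycin alveolar class included a cluster of interferon-stimulated cells, described with the fibroblast states, and its Tap1 level rested on them.

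**Figure D2:**
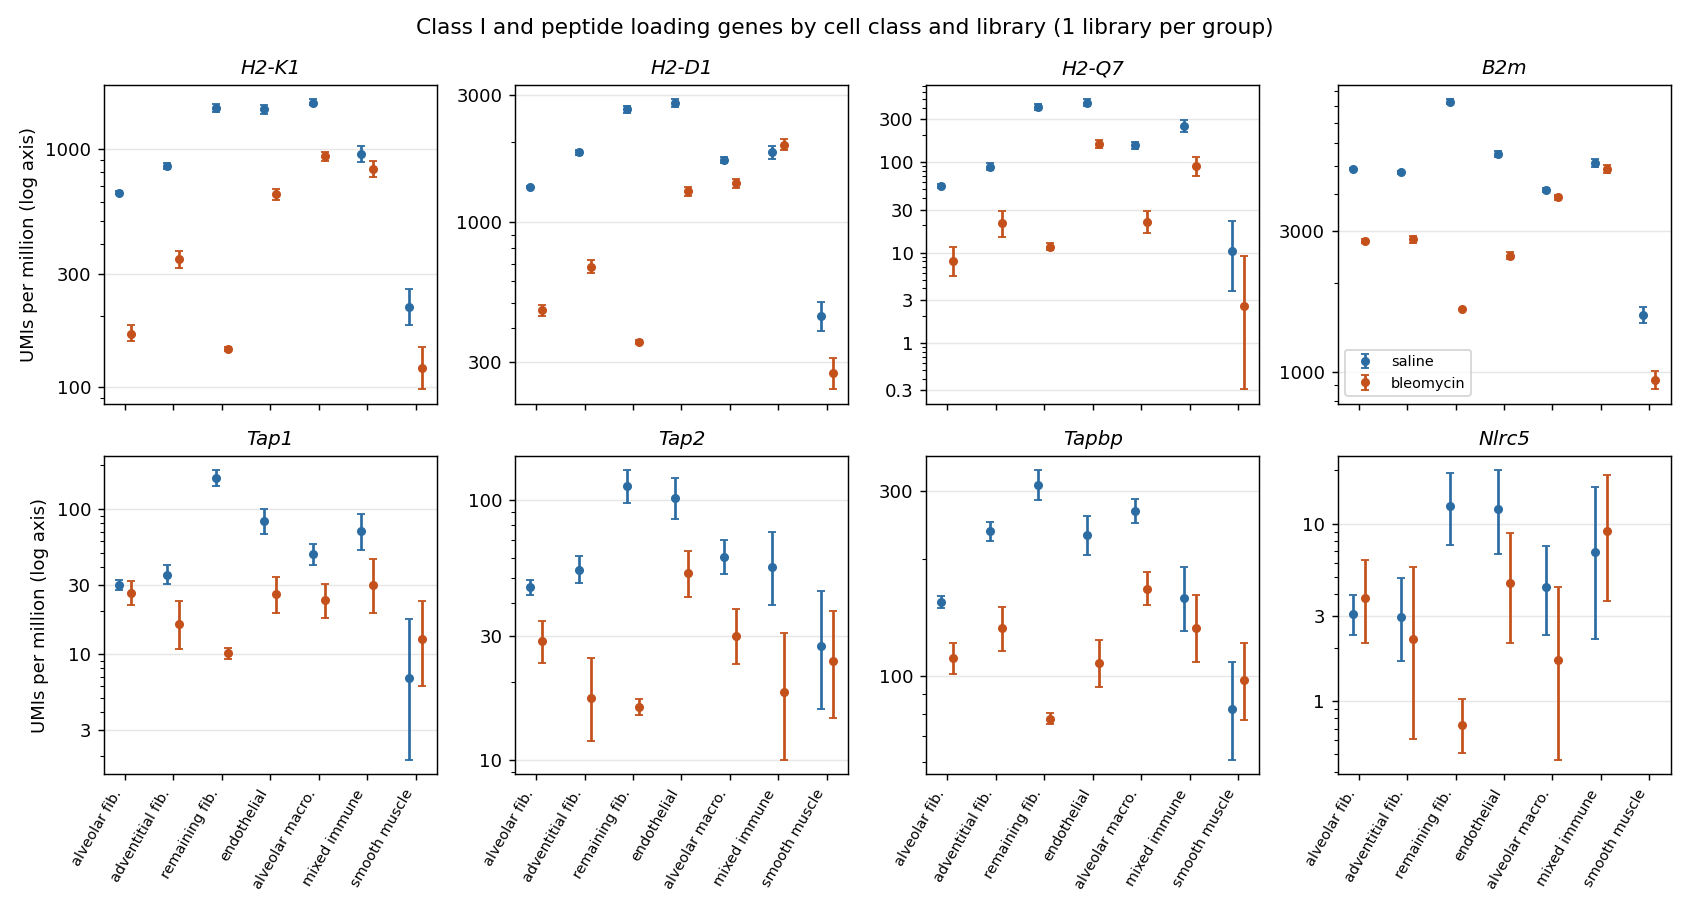
Level of each gene (y axis, UMIs per 1000000 UMIs of the class, log axis) in 7 cell classes (x axis) of the saline (blue) and bleomycin (orange) library. Points are sums over the cells of 1 library and bars exact 95% Poisson intervals, and a class with 0 UMIs has no point. Saline H2-K1 is highest in alveolar macrophages, remaining fibroblasts and endothelial cells (1570, 1490 and 1470), and the remaining fibroblasts, which are different clusters in the 2 libraries, are the furthest apart.

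Across fibroblast states the pathway ran in a graded order, and every saline cluster lay above every bleomycin cluster for H2-K1, H2-D1 and B2m. For H2-K1 the intervals of the lowest saline cluster (373 UPM) and the highest bleomycin cluster (345 UPM) overlapped. There were 13 fibroblast clusters with at least 50 cells of a library, 6 in saline and 7 in bleomycin. The highest was a saline cluster of 116 cells led by Cxcl13, Cxcl5 and Cxcl9, chemokine genes that attract B cells, neutrophils and activated T cells. It had 1670 UPM of H2-K1 [1600 to 1740], 3000 of H2-D1, 443 of H2-Q7, 9590 of B2m, 201 of Tap1, 132 of Tap2, 374 of Tapbp and 15.9 of Nlrc5 [9.55 to 24.8]. Against the saline alveolar fibroblasts this was 2.54-fold higher [2.42 to 2.66] for H2-K1, 8.09-fold [7.28 to 8.99] for H2-Q7 and 6.71-fold [5.75 to 7.82] for Tap1, but only 1.96-fold [1.92 to 2] for B2m. The interferon-inducible GTPase gene Gbp2 stood at 779 UPM in this cluster, against 84.9 in alveolar fibroblasts, and took part in the clustering, so these levels only describe it.

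The saline alveolar clusters followed below. Cells led by Spon2 and Inmt (831) had 837 UPM of H2-K1, those led by Tnfaip6 and Il6 (580) had 741, those led by Slc7a10 and Npnt (459) had 590 and those led by Slc7a10 and Colq (716) had 373. The same 4 clusters had 6260, 4370, 4070 and 3970 UPM of B2m and 83.9, 73.7, 28.9 and 12.2 UPM of H2-Q7. The cells led by Slc7a10 were thus the lowest of the saline states for all 3 heavy chains.

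After bleomycin the highest H2-K1 was in the 189 adventitial cells, at 345 UPM, followed by the 53 cells led by Ifit3, Ifit1 and Rsad2, with 285, and by the 1000 cells led by Thbs4, Spp1 and Igfbp2, with 256. The cells led by Wfdc12, Mfap4 and Tcf21, the alveolar fibroblasts of this library (302 cells), had 137, and cycling cells led by Hist1h2ap, Ube2c and Birc5 (188) had 136. The 617 cells led by Anxa8, Msln and Sncg and the 1129 led by Cthrc1 and Col11a1, genes of matrix-producing fibroblasts in fibrotic lung, were the lowest, at 90.5 UPM and 81.2 UPM. In the Cthrc1 cluster H2-D1 was 216 UPM, B2m 911, Tap1 6.93, Tapbp 59.9 and Nlrc5 0.25 [0.068 to 0.639]. From the highest to the lowest of the 13 states H2-K1 spanned 20.6-fold, H2-D1 13.9-fold, B2m 10.5-fold, Tap1 29.2-fold, Tap2 14.7-fold and Tapbp 6.24-fold. H2-Q7 spanned 375-fold, down to 1.18 UPM (13 UMIs) in the Msln cluster. In that order 6 pairs of neighbours had overlapping intervals for H2-K1, 2 for H2-D1, 4 for B2m, 9 for H2-Q7, 10 for Tap1, 9 for Tap2, 8 for Tapbp and 11 for Nlrc5. By counting error alone, the rank of single clusters is thus best resolved for H2-D1 and partly unresolved for every gene.

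In the Ifit3 cluster Tap1 and Nlrc5 stood apart from the other 6 genes. Against the other 333 alveolar fibroblasts of the bleomycin library it had 10.8-fold more Tap1 [6.92 to 17.3], at 95.8 UPM against 8.88, and Nlrc5 was at 16.2 UPM against 0.634 (a ratio of 25.5 [5.77 to 233]). H2-K1 was 2.05-fold higher [1.74 to 2.42], H2-D1 1.56-fold [1.41 to 1.73], Tapbp 2.07-fold [1.69 to 2.53] and B2m 1.11-fold [1.06 to 1.16]. For H2-Q7 (2.05 [0.894 to 4.46]) and Tap2 (1.55 [0.995 to 2.36]) the intervals included 1. The Ifit3 cells thus came near the saline Cxcl13 cells for Nlrc5 (16.2 against 15.9 UPM), while their H2-K1, 285 UPM, stayed below the lowest saline state (373) and their H2-Q7, 13.7 UPM, was close to it (12.2).

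**Figure D3:**
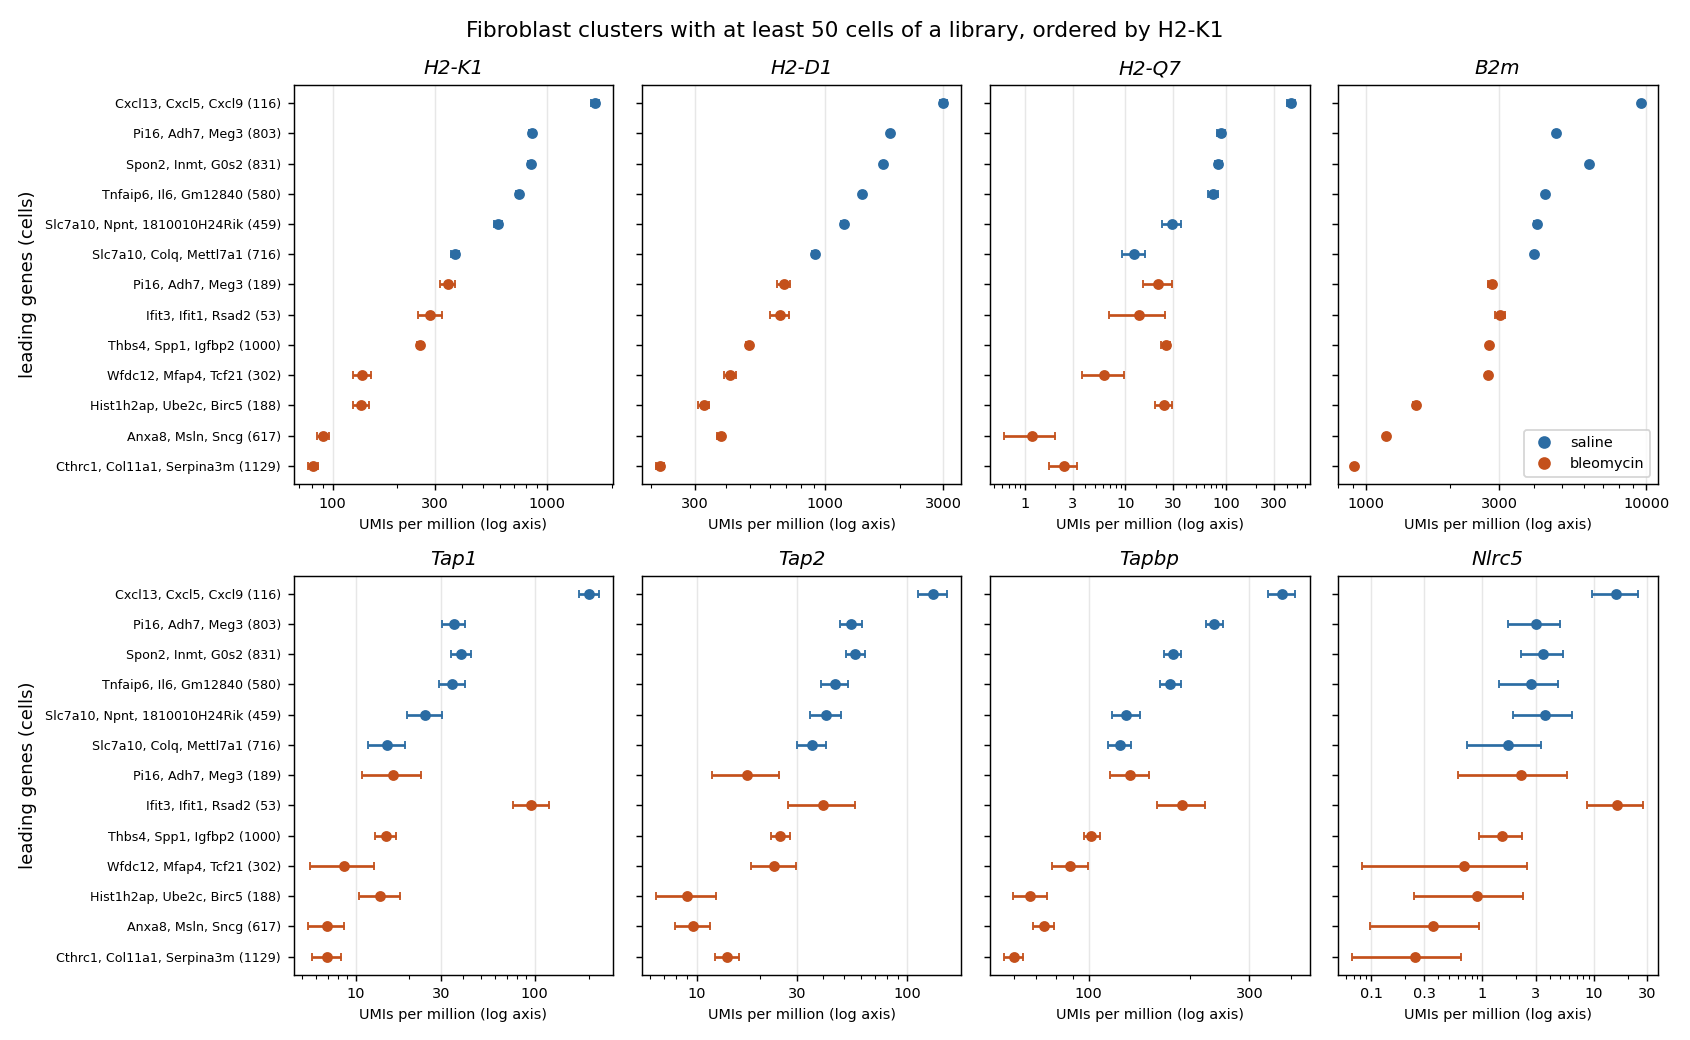
Level of each gene (x axes, UMIs per 1000000 UMIs of the cluster, log axes) in the 13 fibroblast clusters with at least 50 cells of a library, named by their leading genes with the number of cells and ordered by H2-K1, saline in blue and bleomycin in orange. Points are sums over cells, bars exact 95% Poisson intervals. All saline points lie above all bleomycin points for H2-K1, H2-D1 and B2m, though for H2-K1 the nearest intervals overlap. For Tap1 and Nlrc5 the bleomycin Ifit3 cluster (95.8 and 16.2) lies among the saline clusters or above them.

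Over all fibroblasts, the 7 genes with enough UMIs were lower in the bleomycin library. Of all 5887 genes measured in pooled fibroblasts 9.31% fell and 5.91% rose, and here 7 of 7 fell and 0 rose, with a median log2 ratio of -1.61 over the 8 genes beside -0.05 over the 13947 genes with at least 20 UMIs. H2-K1 went from 747 UPM [736 to 758] in 3560 saline fibroblasts to 154 [150 to 157] in 3515 bleomycin fibroblasts, 4.86-fold lower [4.74 to 4.99]. H2-D1 went from 1530 to 375 UPM, 4.08-fold lower [4.01 to 4.15], and H2-Q7 from 83.9 to 11.7, 7.19-fold lower [6.57 to 7.88]. The heavy chains therefore differed most. B2m went from 5080 to 1760 UPM, 2.89-fold lower [2.87 to 2.91], Tap1 from 39.4 to 11.6, 3.39-fold [3.06 to 3.75], Tap2 from 51.8 to 17.0, 3.05-fold [2.80 to 3.32], and Tapbp from 181 to 82.1, 2.2-fold [2.11 to 2.3]. Nlrc5, at 3.65 and 1.02 UPM (94 and 53 UMIs), was under the 20 UPM the rule asks for, with a ratio of 3.59 [2.54 to 5.13].

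The call depends on the scale for 5 of these genes. Bleomycin fibroblasts held more UMIs, a median of 13601 against 6833.5, and as plain means of UMIs per cell, with no scaling, only H2-K1 (5.4 to 2.28) and H2-Q7 (0.607 to 0.173) fell 2-fold. H2-D1 went from 11.1 to 5.56 UMIs per cell, a log2 ratio of -0.99, B2m from 36.7 to 26.0, Tap1 from 0.285 to 0.172, Tap2 from 0.374 to 0.252 and Tapbp from 1.31 to 1.22. Fewer class I transcripts in a cell and more of other transcripts cannot be told apart on the UPM scale, and the UMIs caught per cell depend on sequencing depth as well. Endothelial markers in the fibroblasts summed to 0.975% of their level in endothelial cells in saline and 0.549% after bleomycin. Carried over in that proportion, endothelial RNA would be at most 5.33% and 7.55% of the level of any of the 8 genes. The same limit was 5.89% and 15.9% in alveolar fibroblasts and 10.2% and 9.49% in adventitial fibroblasts. Its part in the ratios was not tested. Leaving out the Ifit3 and Cxcl13 clusters kept all 7 calls, with H2-K1 at 700 and 151 UPM and Tap1 at 31.0 and 10.2. The share of all genes past the rule was not counted without them.

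**Figure D4:**
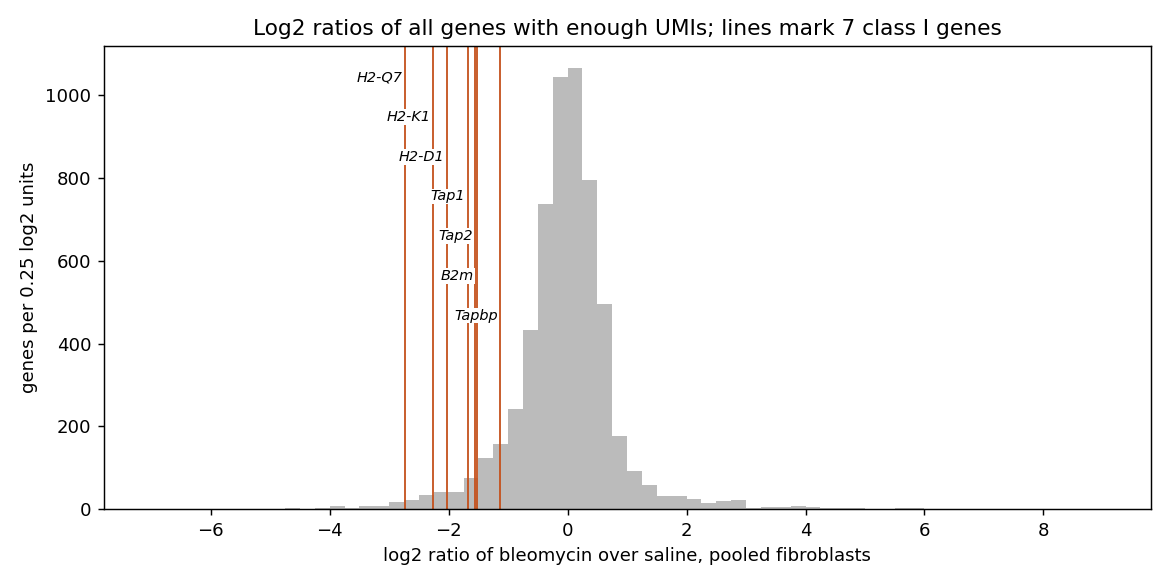
Number of genes (y axis) by log2 ratio of bleomycin over saline in pooled fibroblasts (x axis, bins of 0.25) for the 5887 genes with enough UMIs, with lines at 7 of the 8 genes, Nlrc5 having too few. All lines lie left of the bulk, from Tapbp at -1.13 to H2-Q7 at -2.74, while the median over genes with at least 20 UMIs is -0.05.

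The libraries differ in which fibroblasts they hold, so the same genes were compared within states. Adventitial fibroblasts are the closest match, since the same cluster, led by Pi16, supplied them in both libraries (803 and 189 cells). Of 5348 genes measured there 6.88% fell and 2.79% rose, and 5 of the 7 genes fell. H2-K1 went from 848 to 345 UPM, 2.46-fold lower [2.26 to 2.68], H2-D1 from 1830 to 681, 2.69-fold [2.53 to 2.86], H2-Q7 from 89.3 to 21.2, 4.21-fold [3.02 to 6.03], and Tap2 from 53.9 to 17.3, 3.12-fold [2.14 to 4.68]. Tap1 went from 35.3 to 16.2 UPM, 2.18-fold [1.47 to 3.36], on 29 UMIs in the bleomycin cells, and its log2 ratio of -1.08 lost the call, at -0.90, when every cell was weighted equally. B2m (4760 to 2820 UPM) and Tapbp (236 to 133) were 1.69-fold [1.64 to 1.74] and 1.78-fold [1.55 to 2.05] lower, inside the rule of size. As means per cell only H2-Q7 (0.557 to 0.201) and Tap2 (0.336 to 0.164) fell, and H2-K1 had a log2 ratio of -0.69.

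In alveolar fibroblasts only the heavy chains fell, 3 of 7 genes, where 3.99% of 5713 genes fell and 2.66% rose. H2-K1 went from 658 to 168 UPM, 3.91-fold lower [3.62 to 4.23], H2-D1 from 1360 to 468, 2.90-fold [2.77 to 3.05], and H2-Q7 from 54.8 to 8.09, 6.77-fold [4.77 to 9.95]. These calls also held as means of UMIs per cell, with log2 ratios of -1.48, -1.05 and -2.16. B2m went from 4890 to 2780 UPM (1.76-fold lower [1.72 to 1.79]) and Tap2 from 46.1 to 28.6 (1.62-fold [1.33 to 1.98]), and Tap1 stood at 30.0 and 26.5 (a ratio of 1.13 [0.916 to 1.40]). Different clusters held most of the class in the 2 libraries: the Spon2, Tnfaip6 and Slc7a10 clusters in saline, and in bleomycin the Wfdc12 cluster with 302 of 386 cells and the Ifit3 cluster with 53. Without the Ifit3 cluster, a choice made after its levels were seen, Tap1 was 29.3 and 8.88 UPM, 3.30-fold lower, and fell as well. H2-K1 was then 4.73-fold lower. The share of all genes past the rule was not counted without that cluster.

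Holding the mix of fibroblast states fixed changed the genes unequally. When the bleomycin levels of alveolar, adventitial and remaining fibroblasts were weighted by the saline shares of UMIs (74.3%, 19.5% and 6.24%), the log2 ratio of H2-K1 moved from -2.27 to -1.89, that of H2-D1 from -2.03 to -1.61 and that of H2-Q7 from -2.74 to -2.84. These 3 stayed at least 2-fold lower. B2m moved from -1.53 to -0.90, Tap1 from -1.68 to -0.72, Tap2 from -1.55 to -0.99 and Tapbp from -1.13 to -0.67, none of them 2-fold. This split depended on the settings: with a strict barcode filter and with several other clusterings, more of the genes were at least 2-fold lower. The remaining fibroblasts, with the smallest weight, were different clusters in the 2 libraries.

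In endothelial cells 6 of 7 genes fell, but the class had a different make-up in the 2 libraries. Of 5014 genes measured 9.95% fell and 9.39% rose. H2-K1 went from 1470 to 647 UPM, 2.28-fold lower [2.12 to 2.45], H2-D1 from 2790 to 1310, 2.13-fold [2.02 to 2.24], H2-Q7 from 459 to 160, 2.86-fold [2.49 to 3.30], and B2m from 5470 to 2480, 2.2-fold [2.12 to 2.29]. Tap1 went from 82.3 to 25.9 UPM, 3.18-fold lower [2.25 to 4.56], and Tapbp from 231 to 108, 2.13-fold [1.78 to 2.56]. Tap2, at 102 and 52.2 UPM, was 1.95-fold lower [1.49 to 2.55]. Only 3 of the 7 fell with every cell weighted equally or thinned to 2000 UMIs, and 2, H2-Q7 and Tap1, as mean UMIs per cell. General capillary cells, which line the alveolar capillaries, were 109 of 156 saline and 99 of 187 bleomycin endothelial cells, and lymphatic cells were 21 and 71. The 71 lymphatic cells had 296 UPM of H2-K1, 673 of H2-D1, 41.6 of H2-Q7 and 1360 of B2m, well below the capillary cells of their library.

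Within general capillary cells, from the same cluster in both libraries, 1 of 7 genes fell, where 10.7% of 3335 genes fell and 5.49% rose. It was Tap1, at 82.1 and 37.1 UPM (2.21-fold lower [1.45 to 3.45], 78 and 32 UMIs). H2-K1 went from 1480 to 983 UPM, 1.5-fold lower [1.38 to 1.64], H2-D1 from 2770 to 1930, 1.44-fold [1.35 to 1.53], H2-Q7 from 494 to 286, 1.73-fold [1.48 to 2.03], and B2m from 5680 to 3610, 1.57-fold [1.5 to 1.64]. The intervals of all 4 ratios lie above 1 and, but for H2-Q7, below 2. Fibroblast markers summed to 17.2% of the level of pooled fibroblasts in the saline endothelial cells and to 2.51% in the bleomycin ones, and the part of this in the endothelial ratios was not tested.

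In alveolar macrophages H2-D1 and B2m lay close together in the 2 libraries, while H2-Q7 fell about as far as in fibroblasts. Of 5144 genes measured 5.11% fell and 2.84% rose, and 2 of the 7 genes fell. H2-Q7 went from 155 to 21.8 UPM, 7.10-fold lower [5.31 to 9.67], and Tap1 from 48.8 to 23.5, 2.07-fold [1.51 to 2.88]. H2-K1 stood at 1570 and 935 UPM (1.68-fold lower [1.60 to 1.77]), H2-D1 at 1710 and 1400 (1.22-fold [1.17 to 1.28]), and B2m at 4150 and 3910 (1.06-fold [1.03 to 1.09]). As means of UMIs per cell H2-D1 and B2m were higher after bleomycin, 9.85 against 7.88 and 27.5 against 19.1, and only H2-Q7 fell. The Tap1 call, at the edge of the rule, ended under 7 of the alternatives, for example with a log2 ratio of -0.95 after scaling by the median ratio over genes. Fibroblast markers in the macrophages summed to 5.27% and 4.31% of their level in pooled fibroblasts, and their part in the ratios was not tested. Most saline macrophages came from the cluster led by Fabp1, Chil3 and Ear2 (606 of 641) and most bleomycin ones from that led by Wfdc21, Tyrobp and Fcer1g (300 of 332). A mixed cluster of plasma cell and macrophage markers (Igkc, Jchain and C1qa, 86 and 83 cells) had H2-K1 at 953 and 825 UPM, H2-D1 at 1830 and 1950, and H2-Q7 at 251 and 90.2. Of 2139 genes measured in it 13% fell and 12.7% rose, and of 6 of the genes here H2-Q7 and Tap1 (70.4 to 30.1) fell. Fibroblast markers in this cluster summed to 36.5% and 10.9% of their level in pooled fibroblasts, and their part in its values was not tested. In smooth muscle cells, where 3.87% of 2271 genes fell and 5.99% rose, none of the 4 genes measured passed the rule, and H2-K1 stood at 218 and 121 UPM (1.8-fold lower [1.37 to 2.37]). H2-Q7 was thus lower after bleomycin in every class with enough of its UMIs, and in general capillary cells by less than 2-fold.

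**Figure D5:**
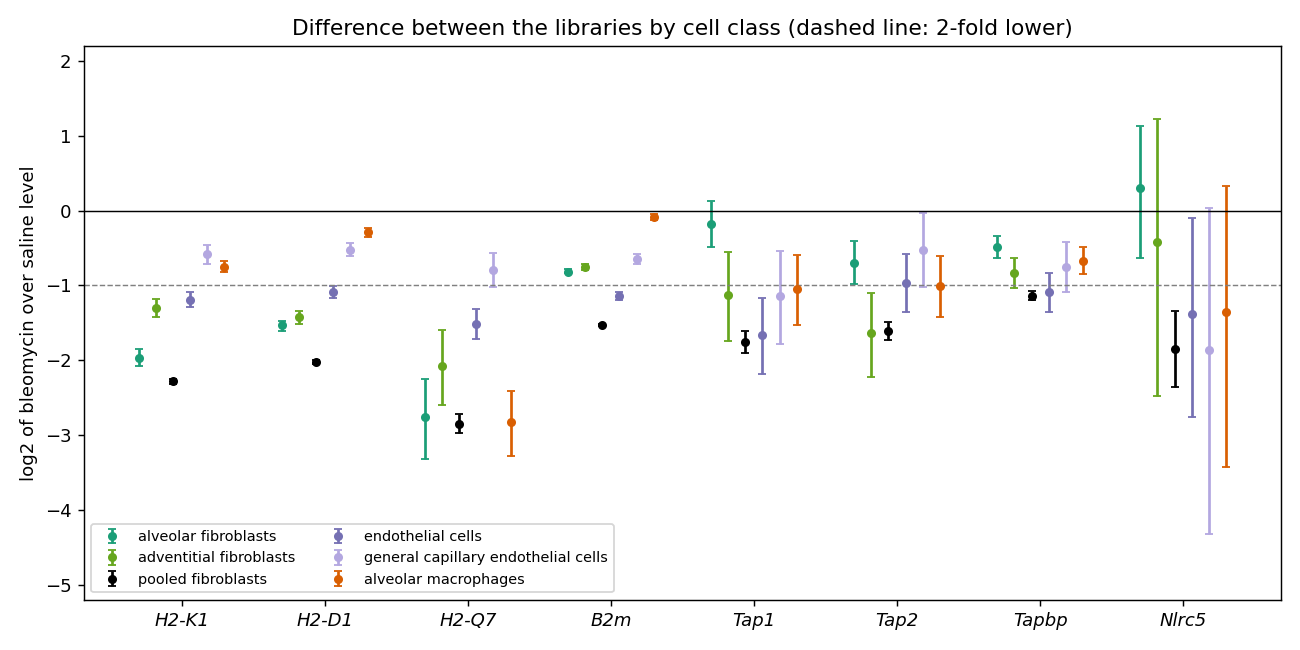
Log2 ratio of the bleomycin over the saline level (y axis, with no prior added) of each gene (x axis) in 6 cell classes, with exact 95% intervals for counting error. The dashed line marks 2-fold lower. H2-Q7 lies below it in all classes but general capillary cells, B2m lies near 0 in alveolar macrophages, and the Nlrc5 intervals are the widest.

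The 2 classical heavy chains were not in a constant proportion. H2-K1 made up 32.8% of the H2-K1 and H2-D1 UMIs in saline fibroblasts [32.4 to 33.2] and 29.0% in bleomycin fibroblasts [28.5 to 29.6]. Most fibroblast clusters lay between 27.3% and 35.7%, while the Wfdc12 cluster had 24.8% [22.7 to 27.0] and the Msln cluster 19.2% [18.2 to 20.3]. Adventitial fibroblasts, at 31.7% and 33.6%, and endothelial cells, at 34.5% and 33.1%, differed little between the libraries. In alveolar macrophages the share was the highest of these classes, 47.9% [46.9 to 48.9] in saline and 40.1% [38.8 to 41.4] after bleomycin, and saline epithelial cells had 42.4%.

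Among the other genes of the pathway, H2-Q4, H2-Q6 and H2-T23 fell in pooled fibroblasts, as did 2 of the immunoproteasome subunits. Of all genes measured in this class 9.31% fell and 5.91% rose. Of 6 other class I or class I-like heavy chains measured, 3 fell and 0 rose: H2-Q6 from 21.1 to 1.65 UPM, H2-Q4 from 107 to 15.1 and H2-T23, which encodes the ligand Qa-1 of an inhibitory natural killer cell receptor, from 72.4 to 30.2. Of 6 immunoproteasome and activator genes, Psmb9 (61.2 to 11.5 UPM) and Psmb8 (117 to 46.4) fell, and Psmb10 (95 to 53.2), Psme1 (159 to 108), Psme2 (166 to 134) and Pomp (179 to 192) stayed inside the rule. Psmb8, Psmb9 and Psmb10 are the catalytic subunits that interferon places in the proteasome, and the first and second lie beside Tap1 in the MHC. The starts of Psmb9 and Tap1 overlap on opposite strands, at the end away from the 3' ends where reads fall. It is not stated whether the counting used strand. Of 16 constitutive proteasome genes 0 fell and 0 rose, with a median log2 ratio of 0.51. Of 9 other loading and trimming genes, Tapbpl (22.6 to 8.06 UPM), a tapasin relative, and the chaperone gene Hspa5 (828 to 374) fell.

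Of 17 genes of class I transcription and its inputs measured, 1 gene being left out, 3 fell and 0 rose, beside 9.31% and 5.91% of all genes, and the median log2 ratio was -0.36. Those that fell were Irf1 (108 to 25.4 UPM), the feedback inhibitor Socs1 (42.4 to 14.6) and the receptor subunit Ifnar2 (206 to 100). Of 20 interferon-stimulated genes measured 9 fell and 1 rose, with a median of -0.75 over the 28 with at least 20 UMIs. Gbp2 went from 116 to 22.4 UPM, Igtp from 51.3 to 10.4, Cxcl9 from 72.8 to 16.3 and Irgm2 from 28.9 to 6.76. The gene that rose was Ifit1, from 11.4 to 26.6, a gene of the Ifit3 cluster. All 4 class II presentation genes measured fell, Cd74 from 94.3 to 12.6, H2-Aa from 32.0 to 4.28, H2-Ab1 from 38.7 to 5.97 and H2-Eb1 from 25 to 3.69. Alveolar macrophage markers in the fibroblasts summed to 0.295% of their level in macrophages in saline and 0.173% in bleomycin. The mixed immune cluster had H2-Eb1 and H2-Ab1 among its leading genes. Its markers C1qa, C1qb and C1qc summed in the fibroblasts to 0.969% and 0.074% of their level there (1160 and 8320 UPM). The part of either source in the class II levels was not tested. Without the Ifit3 and Cxcl13 clusters 7 of 16 interferon-stimulated genes and again 4 of 4 class II genes fell. The share of all genes that fell was not counted without these clusters. None of the 10 genes of interferon and killer ligand sources had enough UMIs in any class, and over all cells Ifng had 9 and 4 UMIs and Ifnb1 had 0 in both libraries.

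The other classes differed from each other in these lists. Of all genes measured, 2.66% rose and 3.99% fell in alveolar fibroblasts, and 2.79% and 6.88% in adventitial fibroblasts. In general capillary cells 5.49% rose and 10.7% fell, and in alveolar macrophages 2.84% and 5.11%. Alveolar fibroblasts had 12 of 24 interferon-stimulated genes higher after bleomycin and 0 lower, among them Ifit3 (25.3 to 233 UPM) and Isg15 (36.6 to 295). Without the Ifit3 cluster 0 of 16 rose and 4 fell, and the share of all genes was not counted for those cells. In the whole class Irf1 (101 to 23.8) fell all the same, and none of the 6 immunoproteasome and activator genes did. In adventitial fibroblasts 5 of 18 interferon-stimulated genes rose (Ifit3, Isg15, Rtp4, Irf7 and Zbp1) and 5 fell (Gbp2, Iigp1, Irgm2, Igtp and Cxcl10), while Irf1 (136 to 34.6) and Psmb9 (64.7 to 19.5) fell. In general capillary cells 12 of 17 interferon-stimulated genes fell and 0 rose, for example Gbp2 (182 to 68.5) and Igtp (106 to 34.8), and all 6 class II genes measured fell, although H2-K1 and H2-D1 did not pass the rule. In alveolar macrophages Gbp2 (73.2 to 13.7) and Cxcl9 (67.1 to 10.7) fell and Isg15 (14.2 to 38.1) rose among 10, Psmb8 (268 to 201) and Psmb9 (82.4 to 78.3) stayed inside the rule, and Psmb5, the constitutive counterpart of Psmb8, rose from 98.3 to 229. Genes named in this paragraph that the fixed rule does not name were chosen after their values were seen.

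Counted by cell, after thinning each cell to 2000 UMIs, the lower levels were shared by many cells. H2-K1 was found in 65.7% of saline fibroblasts [64.1 to 67.3] and 23% of bleomycin fibroblasts [21.7 to 24.5], against 89.9% and 68.3% before thinning. H2-D1 was found in 86.2% and 43.9% of the thinned cells, B2m in 99.4% and 86.2%, H2-Q7 in 10.7% and 2.22%, Tapbp in 28.1% and 15.3%, Tap2 in 9.47% and 3.56%, Tap1 in 5.79% and 1.76% and Nlrc5 in 0.674% and 0.256%. No class here should lack class I, so smooth muscle, with few class I UMIs in both libraries, serves as a low comparison. Its thinned shares in saline and bleomycin were 38.2% and 18.8% for H2-K1, 0.98% [0.0248 to 5.34] and 1.04% [0.0264 to 5.67] for H2-Q7 and 0.98% and 5.21% [1.71 to 11.7] for Tap1, with median depths of 5407.5 and 7501.5 UMIs before thinning against 6833.5 and 13601 in fibroblasts. The bleomycin fibroblast shares of H2-Q7 and Tap1 lay within those intervals and are not read as expression in single cells. The median thinned cell had 8 B2m UMIs in saline and 2 after bleomycin. In alveolar macrophages H2-Q7 was found in 24.3% and 3.31% of the thinned cells.

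In fibroblasts and endothelial cells, H2-K1, H2-D1 and B2m went together from cell to cell. In thinned saline fibroblasts Spearman's rho over 3560 cells was 0.46 for H2-D1 with B2m, 0.38 for H2-K1 with B2m and 0.34 for H2-K1 with H2-D1. After bleomycin the first was 0.33 and the second 0.26. Endothelial cells had higher values, 0.53 and 0.58 for H2-D1 with B2m in saline and bleomycin. The same genes went together in mixed immune cells, with H2-K1 and B2m at 0.49 in saline and 0.45 in bleomycin. In alveolar macrophages H2-D1 with B2m was 0.13 in saline and 0.33 in bleomycin. Other pairs lay at or below 0 in several classes. Examples were H2-D1 with H2-Q7, at -0.09 in saline mixed immune cells and -0.10 in saline smooth muscle cells. In bleomycin endothelial cells H2-D1 with Nlrc5 was at -0.11. Pairs with Nlrc5, Tap1 or Tap2 were mostly weak, and the median over all 28 pairs was 0.07 in saline and 0.04 in bleomycin fibroblasts. Cells of a class share a library and, in pooled fibroblasts, several states, and the counts of the weaker genes are sparse, so these values are descriptions only.

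Across the 25 cluster and library profiles with at least 50 cells, the level of H2-K1 ran most closely with H2-D1 (Pearson r = 0.968 on log2 levels) and H2-Q7 (0.901) among the 8 genes, and least with Nlrc5 (0.705). Tap1 ran most closely with Nlrc5 (0.911) and Tapbp (0.892). Outside the 8, the nearest of 7801 genes to H2-K1 were Psmb9 (0.908), H2-M3 (0.861), H2-Q6 (0.858), Psmb8 (0.852) and Tnfaip3 (0.830), and the nearest to Tap1 were Psmb8 (0.890), Irgm1 (0.878), Psmb10 (0.876), Psmb9 (0.873) and Gbp2 (0.870). In the 13 fibroblast profiles, with 6134 genes, H2-K1 was closest to the complement gene C3 (0.954), H2-Q4 (0.953), AW112010 (0.944), Ubqln2 and Rgs7bp (both 0.939), and Tap1 to Gbp2 (0.976), Igtp (0.972), Gbp3 (0.948) and Psmb8 (0.947). Profiles of a library share its depth and its mice, and the saline profiles lie above the bleomycin ones for many of these genes.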

How the data were processed

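The authors deposited raw UMI counts per gene and cell barcode, 1 matrix per library, not normalized. Cell Ranger 2.1.1 and the mm10 genome are named in the submitters' processing notes, and the annotation release and cell calling settings are not stated there. Barcodes with at least 500 genes, 1000 UMIs and at most 10% mitochondrial UMIs were kept, leaving out 23 saline and 5 bleomycin barcodes. Scrublet's automatic threshold marked 0.165% and 0.112% of barcodes, too few to trust, so the 238 and 160 highest scores were left out, at 0.8% per 1000 barcodes. scanpy 1.11.5 gave 25 Leiden clusters at resolution 1 (2000 variable genes, 30 components, 15 neighbours, libraries not integrated), named from marker lists. A lineage needed 3 markers each found in 25% of cells and a second lineage under 90% of its score, and a kind a lead of 10 percentage points. The cluster led by Hhip stayed unnamed, since smooth muscle and fibroblast scores were close. Fibroblasts that were neither alveolar nor adventitial are called remaining.

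Intervals of levels are exact Poisson, of ratios exact conditional binomial and of shares Clopper-Pearson, all at 95%. No test was made. Alternatives changed the filters, doublets, clustering, scaling, prior and size rule. Named were the 8 genes, up to 4 genes of each of 8 other lists with the largest ratios past the rule in pooled fibroblasts, all immunoproteasome and activator genes, and the 5 genes nearest to H2-K1 and to Tap1, except 1 gene that is not reported here. The genes and the lists were chosen with earlier results of these data known. The size rule, the ratio intervals and the depth after thinning were tested on simulated counts. The listed H2-T10, H2-L, H2-K2 and H2-Bl have no row under those symbols. Free RNA was gauged from markers of other classes.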

Additional observations from a re-analysis of the deposited data

How the results depend on the processing

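With 1 library per group, differences between mice and between libraries cannot be separated from the treatment, and intervals cover counting error only. No paired analysis was possible because each group has 1 library. Of 536 log2 ratios of single genes under other settings, 482 kept their side of the 2-fold rule, 31 lost it, 23 gained it and 0 changed sign past it. Of the counts of genes past the rule, 7 in pooled fibroblasts became 2 as mean UMIs per cell with no scaling, 5 in adventitial fibroblasts became 2 on that scale, and 6 in endothelial cells became 2 on that scale and 3 both with cells thinned to 2000 UMIs and with cells weighted equally. The 2 in alveolar macrophages became 1 with thinned cells, scaling by the median ratio over genes, mean UMIs per cell, Leiden resolution 2, a prior of 10 UPM or, added after seeing the data, without the cell cycle cluster. A 1.5-fold rule gave 5 there and 5 in alveolar fibroblasts instead of 3. The share of all genes past the rule was not counted at 1.5-fold or under the other alternatives. At a fixed mix of states, 3 genes became 6 with a strict barcode filter (1000 genes, 2000 UMIs, 5% mitochondrial) and with each library clustered alone, and 5 at Leiden resolution 2 and with the antigen presentation genes in the clustering. The cause was not tested. Values after thinning rest on 1 random draw, which for genes with few UMIs, such as Tap1 in adventitial fibroblasts, leaves a handful of UMIs. At Leiden resolution 0.5 alveolar fibroblasts and the fixed mix gave no value, since the class was not formed. Leaving out the Ifit3 and Cxcl13 clusters was likewise added after seeing the data. Scaling divided the ratios of a class by their median over genes, the log2 of which was -0.08 to 0.07. Nlrc5 was limited by its low level, which never reached 20 UPM.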
